A study of Mus musculus and Homo sapiens with 41 samples.

Results

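The expression of 33 heat shock and cytosolic chaperone genes was described in mouse myeloid progenitors that differ in PLZF, the transcription factor encoded by Zbtb16. The genes were selected by name, from the heat shock protein and chaperonin families and their partners, and the list was drawn up with earlier values of these libraries in view. Which of those values weighed in the choice is not recorded, so the genotype comparison and the 416b comparison are both given here as descriptions of these genes, and counts over them are no evidence of a direction. They comprised 8 heat-inducible Hsp genes, 5 constitutive Hsp genes, 3 mitochondrial chaperone genes, 7 co-chaperone genes, 8 chaperonin subunit genes and 2 heat shock factor genes, out of 53756 genes in the table of GMPs and 13238 in the table of 416b cells.

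GMPs (granulocyte-monocyte progenitors, sorted as Lineage- cells with c-Kit, Cd34, FcγR and Cd45 and without Sca-1) came from C57BL/6 Cd45-1 mice that had been irradiated and reconstituted with bone marrow of WT or Zbtb16lu/lu C57BL/6 donors. The Zbtb16lu/lu strain is Cd45-2, and a Cd45-2 antibody is among those used for sorting. The Zbtb16lu/lu genotype is a germ-line loss of PLZF function, so every donor-derived cell carries it. RNA depleted of ribosomal RNA was sequenced, and the table holds 2 libraries per genotype. 416b cells, a Cd34+ mouse myeloid cell line, were transduced with a lentivirus carrying PLZF-Flag or with the Empty vector, sorted for the vector's GFP and sequenced in 1 library per condition. The ages of the mice and the number of mice behind each library of GMPs are not given in the sources used here.

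Heat shock proteins are chaperones, which hold unfolded proteins, help them fold or pass them on for degradation. When unfolded protein accumulates, the factor HSF1 is released from chaperones, forms trimers and binds heat shock elements, arrays of alternating GAA and TTC units set apart by a pair of bases, in front of the inducible Hsp genes. Hsp70 proteins act with J-domain proteins (Dnaj) and nucleotide exchange factors, Hsp90 proteins with a cycle of co-chaperones, and the ring-shaped chaperonin CCT folds actin and tubulin. Heat shock genes are also among those that react when cells are taken from a tissue and dissociated.

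Values are normalized counts, that is, reads per gene divided by a size factor of the library. They summed to between 38562940 and 40130730 per library of GMPs. The column names of the GMP table carry dates of unstated meaning, and only 1 date is common to both genotypes. The libraries of the common date are called WT library 1 and Zbtb16lu/lu library 1, and those of the other dates WT library 2 and Zbtb16lu/lu library 2. Zbtb16 itself had 705 and 829 normalized counts in WT against 369 and 269 in Zbtb16lu/lu. The 12 GMP marker genes, led by Mpo with 477326 to 552003, summed to 791973 and 781394 in WT against 883526 and 898107 in Zbtb16lu/lu, and 10 of 12 had a higher mean log2 value in Zbtb16lu/lu. The part of this in the chaperone values was not tested. Because the samples were sorted populations, fewer cells of a type that expresses a gene and less RNA of it per cell cannot be told apart.

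Heat shock elements were searched in RefSeq promoter windows of GRCm38.p6, in the 250 bases before each start, as the 8-letter motifs GAANNTTC and TTCNNGAA, each of which reads the same on both strands, and as runs of at least 3 alternating units, in which 8-letter motifs overlap. Windows were found for 26 of the 33 genes, and Hsp90aa1, Hsp90ab1, Hspa8, Hspa9, St13, Cct4 and Hsf1 had no entry. An 8-letter motif stood in at least 1 window of 11 of the 26 genes (42.3%), against 14.5% of all 27025 genes with a window. Counted by window, it stood in 35.3% of the members' windows and 12.8% of all windows. It was held by 5 of 7 heat-inducible Hsp genes (Hspa1a, Hspa1b, Hspb1, Hsph1 and Dnajb4), by both mitochondrial chaperone genes with a window (Hspd1 and Hspe1), by 1 of 3 constitutive Hsp genes (Dnaja1), by 1 of 6 co-chaperone genes (Fkbp4) and by 2 of 7 chaperonin genes (Cct2 and Cct5). A run of at least 3 units was held by Hspd1 and Hspe1, and by 0.514% of all genes with a window.

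The stretches that hold the motifs are shown for the genes whose counts differed most between libraries and for the Hspe1 array, each with 20 flanking bases, 5′ to 3′ on the strand of the gene, with motif bases in capitals. They lie at chr17:34972233-34972280 (minus strand) for Hspa1a, chr17:34959315-34959362 (minus) for Hspa1b, chr5:135887782-135887849 (plus) for Hspb1, chr5:149636342-149636389 (minus) for Hsph1 and chr1:55088039-55088096 (plus) for Hspe1.
Hspa1a: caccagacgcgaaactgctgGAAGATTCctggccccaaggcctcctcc
Hspa1b: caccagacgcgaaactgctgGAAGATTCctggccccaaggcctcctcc
Hspb1: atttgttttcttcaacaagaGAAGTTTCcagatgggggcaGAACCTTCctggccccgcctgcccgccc
Hsph1: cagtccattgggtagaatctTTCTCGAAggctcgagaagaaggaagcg
Hspe1: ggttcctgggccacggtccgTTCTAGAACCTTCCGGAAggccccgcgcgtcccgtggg

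The stretches of Hspa1a and Hspa1b are identical, and the 250 upstream bases of these neighbouring copies match at 247 positions (98.8%). Hspb1 carries 2 motifs and Hsph1 carries 1. The array of Hspe1, made of 2 overlapping runs of 3 units, covers 18 bases (chromosome 1, 55088059 to 55088076) and is the same genomic stretch as that found in a window of Hspd1, which is read from the opposite strand. A match describes letters in a window, and no match says nothing about the factor.

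In GMPs, the 32 genes with enough counts to be tested were all lower in Zbtb16lu/lu than in WT by their mean log2 value, and none was called. The median log2 fold change was -0.36, from -3.36 for Hspa1b to -0.02 for Hsf1, against -0.0063 over all 20531 genes tested. Hspb1 was the member not tested, having reached 10 normalized counts in a single library. Abundant genes, those averaging 1000 normalized counts or more like 27 of the 32, had a median of -0.04, with 58.8% of them lower. By class, the median was -0.69 for the heat-inducible Hsp genes, -0.57 for the constitutive Hsp genes, -0.56 for the mitochondrial chaperone genes, -0.39 for the co-chaperone genes, -0.24 for the chaperonin genes and -0.07 for the heat shock factors. Without WT library 1 it was -0.28 for the constitutive Hsp genes, -0.23 for the mitochondrial chaperone genes and -0.11 for the chaperonin genes, and without WT library 2 it was -0.37 for the chaperonin genes.

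With limma at an adjusted p under 0.08, 0 of the 32 genes were called, and the background was 0% of all genes, with a smallest adjusted p of 0.299. At an unadjusted p under 0.05, 16 of the 32 were lower, against a background of 4.37% of all genes. Among genes averaging 1000 or more this background was 7.55%. Without the intensity trend 6 of the 32 were lower at that p, against 2.65% of all genes. With the trend 0 were higher, against 5.50% of all genes. Both Zbtb16lu/lu libraries lay below both WT libraries for 24 of the 32 genes, against 22.1% of all genes and 30.8% of genes averaging 1000 or more, and above them for 0, against 21.7% of all genes. An exact permutation test of 2 against 2 libraries cannot go below a two-sided p of 0.333. Since the list was made with these libraries in view, nothing is read from these counts.

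The calls depended on the WT libraries. With WT library 1 left out, the median of the members was -0.25 and 15 of the 32 genes were under the adjusted threshold, as were 4662 of all 20531 genes (22.7%). With WT library 2 left out it was -0.49 and 26 of the 32 were, as were 2749 of all genes (13.4%). The log2 fold change moved by over 1.5 times or turned its sign for 23 of the 32 genes without WT library 1 and for 16 without WT library 2. In those fits the lone WT library is assumed to vary like the Zbtb16lu/lu pair. The 2 WT libraries differed by a median of 0.34 (absolute log2) over the members and the 2 Zbtb16lu/lu libraries by 0.09. Over all genes averaging 1000 or more these differences were 0.18 and 0.09. With Zbtb16lu/lu library 1 left out 1 member was called among 64 genes, and with library 2 left out the 1 gene called was a member.

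**Figure D1:**
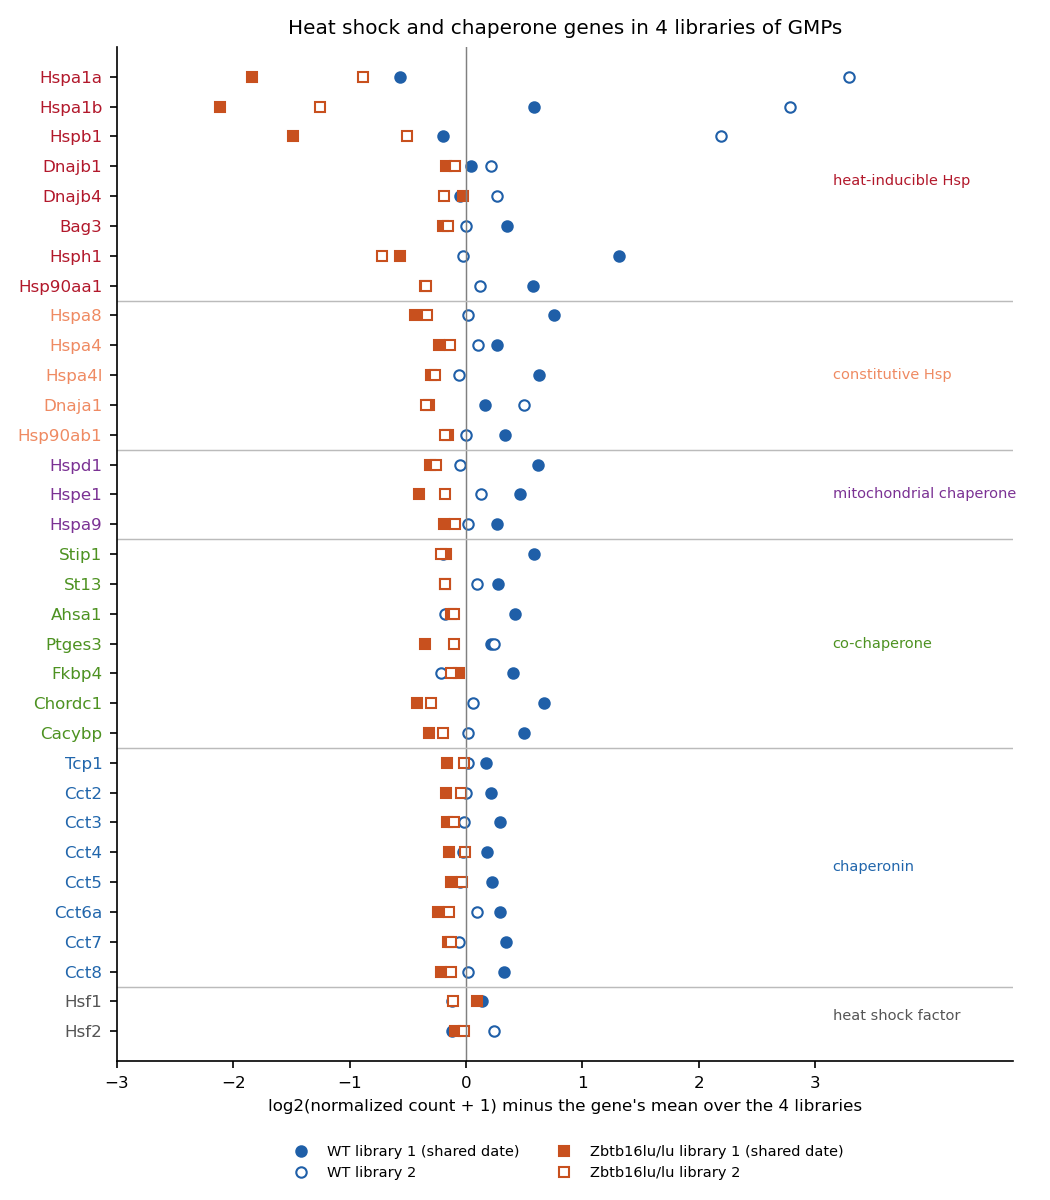
Level of each of the 33 genes in the 4 libraries of GMPs, as log2(normalized count + 1) minus the gene's own mean over the libraries (x axis), with genes grouped by class (y axis). Each point is a library. WT circles lie mostly right of the Zbtb16lu/lu squares, and WT library 1 is the highest for most genes. WT library 2 is the highest for Hspa1a, Hspa1b, Hspb1, Dnajb1, Dnajb4, Dnaja1, Ptges3 and Hsf2.

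Among the heat-inducible Hsp genes, the stress-inducible Hsp70 genes Hspa1a and Hspa1b differed most between libraries. Hspa1a (chromosome 17, 34969190 to 34972156, mm10) had 158 and 2305 normalized counts in WT libraries 1 and 2 against 64.8 and 126 in Zbtb16lu/lu libraries 1 and 2. Its copy Hspa1b (chromosome 17, 34956436 to 34959238) had 471 and 2170 in WT against 72.0 and 132 in Zbtb16lu/lu. All Zbtb16lu/lu values lay below all WT values in both genes, but WT library 2 was 14.6 times WT library 1 for Hspa1a and 4.6 times for Hspa1b. The log2 fold change came to -2.73 (standard error 0.98, with a limma adjusted p = 0.465) for Hspa1a and -3.36 (standard error 0.60, limma adjusted p = 0.299) for Hspa1b. Without WT library 2 these were -0.80 and -2.26, and without WT library 1 they were -4.65 and -4.46. The copies are nearly identical, and the split of reads between them is uncertain. The column names of the GMP table hold the word unique, so reads that match both copies may be missing. Summed, Hspa1a and Hspa1b had 629 and 4475 normalized counts in WT against 137 and 258 in Zbtb16lu/lu, a log2 fold change of -3.15 (standard error 0.73).

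Hspb1, which encodes the small heat shock protein Hsp25, was near the limit of detection, with 3.98 and 25.1 normalized counts in WT against 1.03 and 3.01 in Zbtb16lu/lu. WT library 2 was again the highest, and the other values are 4 normalized counts or fewer, too few for a fold change. Dnajb1, the stress-inducible Hsp40 (a J-domain protein), had 3309 and 3727 in WT against 2853 and 3007 in Zbtb16lu/lu. The groups of Dnajb1 did not overlap, and its log2 fold change was small (-0.26, standard error 0.12, limma adjusted p = 0.515). The related Dnajb4 had 837 and 1042 in WT against 849 and 762 in Zbtb16lu/lu, and its groups overlapped. Bag3, an Hsp70 exchange factor that directs clients to autophagy, had 462 and 361 in WT against 316 and 324 in Zbtb16lu/lu, without overlap.

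Hsph1 and Hsp90aa1, like Bag3, had the opposite order of the WT libraries. Hsph1, which encodes the Hsp110 exchange factor of Hsp70 (chromosome 5, 149614287 to 149636376), had 10214 and 4047 normalized counts in WT against 2783 and 2491 in Zbtb16lu/lu. WT library 1 was thus 2.52 times WT library 2, and both stood above the Zbtb16lu/lu pair. The log2 fold change came to -1.29 (standard error 0.34, with a limma adjusted p = 0.387), with -0.62 without WT library 1 and -1.96 without WT library 2. Hsp90aa1, the inducible cytosolic Hsp90 (chromosome 12, 110690605 to 110702728), had 48352 and 35308 in WT against 25503 and 25640 in Zbtb16lu/lu. The Zbtb16lu/lu libraries of Hsp90aa1 were nearly equal, and its log2 fold change came to -0.69 (standard error 0.16, with a limma adjusted p = 0.326).

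**Figure D2:**
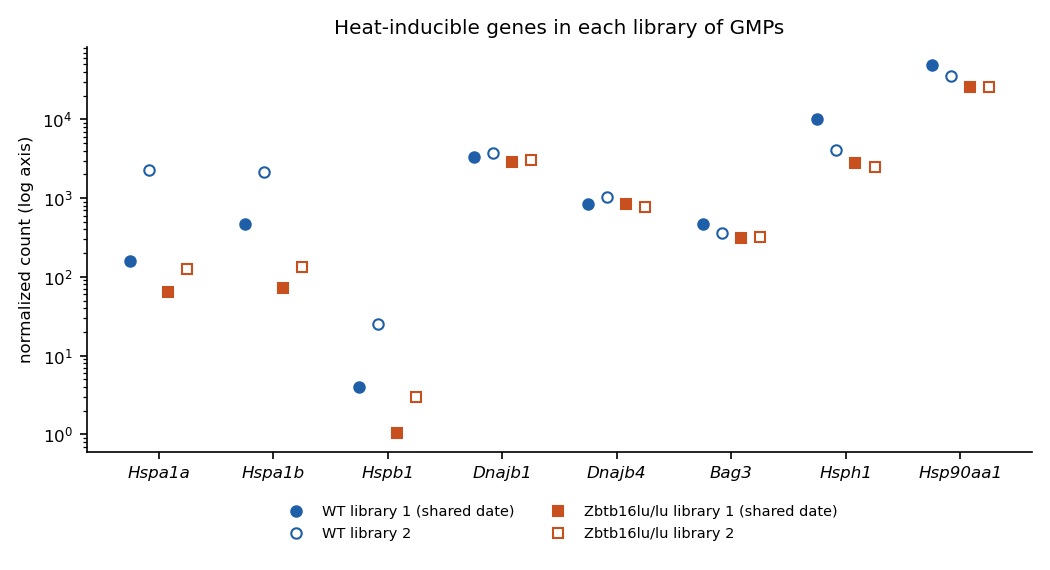
Normalized counts (y axis, log scale) of the 8 heat-inducible Hsp genes in each library of GMPs (points). WT library 2 is highest for Hspa1a (2305), Hspa1b (2170) and Hspb1 (25.1), WT library 1 is highest for Hsph1 (10214) and Hsp90aa1 (48352), and Dnajb1, Dnajb4 and Bag3 lie within a narrow range.

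The 5 constitutive Hsp genes were lower without overlap, as were 22.1% of all genes and 30.8% of genes averaging 1000 or more. Hspa8, the constitutive cytosolic Hsp70 (chromosome 9, 40800984 to 40810087), had 73497 and 44072 normalized counts in WT against 32189 and 34437 in Zbtb16lu/lu. WT library 1 stood apart here, and the log2 fold change of -0.77 (standard error 0.21, limma adjusted p = 0.398) was -0.40 without it. Hspa4, an Hsp110-type exchange factor, had 20820 and 18596 in WT against 14781 and 15786. Its relative Hspa4l had 4371 and 2711 in WT against 2288 and 2347. For both genes WT library 1 was again the highest. Dnaja1, a J-domain partner of Hspa8 with a heat shock motif in its window, showed the reverse, with 2352 and 2975 in WT against 1685 and 1650, and its log2 fold change was close to that of Hsp90aa1 (-0.67, standard error 0.14, limma adjusted p = 0.309). Hsp90ab1, the constitutive Hsp90, had 139887 and 110955 in WT against 99949 and 98244, a log2 fold change of -0.33 (standard error 0.15), which was -0.16 without WT library 1 and -0.50 without WT library 2.

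The mitochondrial chaperones, which fold proteins imported into the matrix, had WT library 1 highest in all 3 cases. Hspd1 (Hsp60) had 19842 and 12468 normalized counts in WT against 10434 and 10835 in Zbtb16lu/lu. Hspe1, its Hsp10 lid, which shares the upstream array shown above, had 4168 and 3302 in WT against 2281 and 2671 in Zbtb16lu/lu. The log2 fold changes of these neighbours on chromosome 1 were -0.56 (standard error 0.19) for Hspd1 and -0.59 (standard error 0.15) for Hspe1. Without WT library 1 they were -0.23 and -0.42, and Hspd1 was at -0.90 without WT library 2. The mitochondrial Hsp70 gene Hspa9 had 27854 and 23360 in WT against 20303 and 21708 in Zbtb16lu/lu, a log2 fold change of -0.28 (standard error 0.13) that was -0.15 without WT library 1. All 3 were lower without overlap, which held for 30.8% of genes averaging 1000 or more.

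The co-chaperones included genes with and without overlap between genotypes. Chordc1, a CHORD-domain partner of Hsp90, had 6900 and 4531 normalized counts in WT against 3239 and 3518 in Zbtb16lu/lu (log2 fold change -0.73, standard error 0.18, limma adjusted p = 0.370). Without WT library 1 its log2 fold change was -0.42. Cacybp, a calcyclin-binding protein with a CS domain like that of p23, had 7006 and 5015 in WT against 3981 and 4334 in Zbtb16lu/lu. In Ptges3, the p23 co-chaperone of Hsp90, the WT libraries were alike, with 4745 and 4819 against 3200 and 3786, and leaving out either moved the log2 fold change of -0.46 by little (-0.47 and -0.45). St13, the Hsp70-interacting protein Hip, had 11860 and 10500 in WT against 8666 and 8668. These 4 of the 7 co-chaperones were lower without overlap, against 30.8% of genes averaging 1000 or more.

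The other 3 co-chaperones were set apart by a single library. Stip1, or Hop, which bridges Hsp70 and Hsp90, had 15609 and 9085 normalized counts in WT against 9205 and 8943 in Zbtb16lu/lu. Ahsa1, or Aha1, the activator of the Hsp90 ATPase, had 13235 and 8694 in WT and 9011 and 9202. Fkbp4, the FKBP52 immunophilin of steroid receptor complexes, had 24049 and 15737 in WT and 17480 and 16708. In all 3 WT library 1 was above the other libraries, which differed little. Without WT library 1 the log2 fold changes were -0.0019 for Stip1, 0.07 for Ahsa1 and 0.12 for Fkbp4, so the latter 2 changed sign.

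The chaperonin subunits had log2 fold changes from -0.39 (Cct6a) to -0.16 (Cct4). Cct6a had 25457 and 22181 normalized counts in WT against 17636 and 18773 in Zbtb16lu/lu (log2 fold change -0.39, standard error 0.12, limma adjusted p = 0.428). Cct8 had 22448 and 18105 in WT against 15449 and 16386, a log2 fold change of -0.34 (standard error 0.13) that was -0.19 without WT library 1. Cct4 had 15691 and 13597 against 12504 and 13706, a log2 fold change of -0.16 (standard error 0.12). Without WT library 1 that of Cct4 was -0.05, and without WT library 2 it was -0.26. With offsets for GC content and length Tcp1 (-0.06) was nearer to 0 than Cct4 (-0.11). WT library 1 was above every other library for all 8 subunits. Tcp1, Cct2, Cct3, Cct5 and Cct7 had log2 fold changes from -0.28 (Cct7) to -0.17 (Cct5), which were -0.11 (Cct3) to -0.03 (Cct5) without WT library 1 and -0.48 (Cct7) to -0.26 (Tcp1) without WT library 2. The groups overlapped for Cct4 and Cct5, and 6 of the 8 subunits were lower without overlap, against 30.8% of genes averaging 1000 or more.

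Hsf1, the main factor of the heat shock response (chromosome 15, 76477422 to 76501913), had 1836 and 1534 normalized counts in WT against 1775 and 1540 in Zbtb16lu/lu, a log2 fold change of -0.02 (standard error 0.15, limma adjusted p = 0.968). Hsf2, a related factor, had 642 and 824 in WT against 653 and 688 in Zbtb16lu/lu, a log2 fold change of -0.12 (standard error 0.17, limma adjusted p = 0.828). The groups overlapped for both, and their signs turned with the library left out. RNA levels say nothing of the trimers or phosphorylation through which HSF1 is controlled.

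The WT libraries thus differed from each other in opposite ways for different members. WT library 1 was above WT library 2 for 25 of the 32 genes tested (78.1%), against 51.0% of all genes and 58.9% of genes averaging 1000 or more. The 7 exceptions were Hspa1a, Hspa1b, Dnajb1, Dnajb4, Dnaja1, Ptges3 and Hsf2. Of the Zbtb16lu/lu libraries, library 1 was above library 2 for 7 of the 32 genes (21.9%), against 45.8% of all genes. Expressed as the median deviation from each gene's mean over the 4 libraries, the co-chaperones stood at 0.42 and 0.02 in WT libraries 1 and 2 and at -0.18 in both Zbtb16lu/lu libraries. The chaperonin genes stood at 0.26 and -0.0094 in WT but at -0.17 and -0.07 in Zbtb16lu/lu. The tested heat-inducible genes stood at 0.35 and 0.22 in WT but at -0.35 and -0.34 in Zbtb16lu/lu.

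Other genes moved with these libraries. The 20 immediate early genes, which respond within minutes to handling and growth factors, summed to 22530 normalized counts in WT library 1, 42341 in WT library 2, 34800 in Zbtb16lu/lu library 1 and 30366 in Zbtb16lu/lu library 2. WT library 2 was above WT library 1 for 13 of the 19 tested, Fos with 11500 against 4281 among them, and below it for 6. Of the 19 genes, 11 had a higher mean log2 value in Zbtb16lu/lu, 3 of them at an unadjusted limma p under 0.05 (5.50% of all genes). The other 8 had a lower one, 1 of them at that p (4.37% of all genes). The 12 erythroid and megakaryocyte markers summed to 2660 and 7565 in WT against 2331 and 4719 in Zbtb16lu/lu, and WT library 2 was above WT library 1 for 11 of 12. The part of either in the high Hspa1a and Hspa1b counts of WT library 2 was not tested.

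Between genotypes, the 12 mature neutrophil markers were higher in Zbtb16lu/lu in 12 of 12 cases by log2 fold change, 8 of them at an unadjusted p under 0.05 (5.50% of all genes were higher at that p) and 0 under the adjusted threshold. Their sums overlapped, with 14409 and 6598 in WT against 10879 and 21666 in Zbtb16lu/lu, and the neutrophil protease gene Mmp9 was listed at 0 in WT library 2. The 10 monocyte and macrophage markers summed to 87380 and 102235 in WT against 118937 and 125827 in Zbtb16lu/lu, and all 10 had a higher mean log2 value there, 7 of them at an unadjusted p under 0.05 (5.50% of all genes). The 8 mast cell, basophil and eosinophil markers summed to 23092 and 16006 in WT against 12760 and 17377 in Zbtb16lu/lu, and 8 of 8 had a lower mean log2 value, 2 of them at an unadjusted p under 0.05 (4.37% of all genes). The B cell list summed to 1073 to 1311 per library, and the T and NK cell list to 17 to 43. The 12 Myc and ribosome biogenesis genes, which like chaperones serve protein production, summed to 149845 and 136359 in WT against 113617 and 114389 in Zbtb16lu/lu, with 12 of 12 lower by log2 fold change and 5 at an unadjusted p under 0.05 (4.37% of all genes). Over all genes, 50.9% had a lower mean log2 value in Zbtb16lu/lu. The median log2 fold change was -0.08 for the 15 proliferation genes and -0.17 for the 6 Sca-1 and stem cell genes. Their part in the chaperone values was not tested.

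The libraries of the shared date were also compared by themselves, as were the remaining libraries, whose dates differ from each other. In both comparisons most members were lower in Zbtb16lu/lu, and by more within the shared date. Zbtb16lu/lu library 1 against WT library 1 gave a median log2 difference of -0.51 with 30 of 32 genes lower. Zbtb16lu/lu library 2 against WT library 2 gave -0.21 with 27 of 32 lower. Each value is a difference of single libraries with no test, and 50.6% of all genes were lower in each pair. Within the shared date Hspa1a differed by -1.27, Hspa1b by -2.69, Hsph1 by -1.88, Hspa8 by -1.19 and Chordc1 by -1.09. Between the other dates these genes differed by -4.18, -4.03, -0.70, -0.36 and -0.37. Dnajb4 and Hsf2 were above 0 within the shared date (both 0.02), and Ahsa1, Fkbp4, Cct4, Cct5 and Hsf1 were above 0 between the other dates, by 0.0048 (Hsf1) to 0.09 (Fkbp4).

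**Figure D3:**
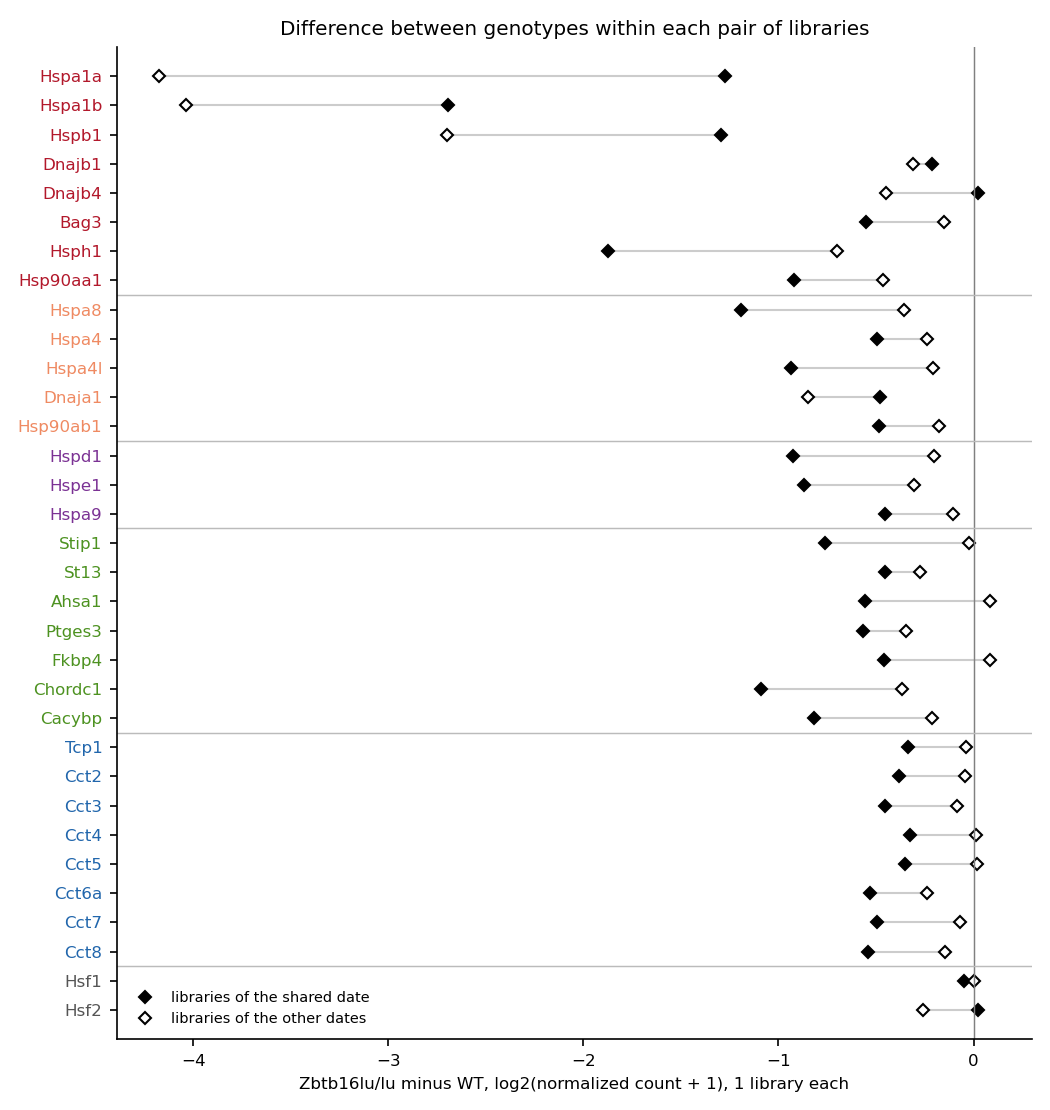
Difference between Zbtb16lu/lu and WT in log2(normalized count + 1) (x axis) for each gene (y axis), from the libraries of the shared date (filled diamonds) and of the other dates (open diamonds), with 1 library per genotype in each. The filled diamonds lie farther below 0 for most genes, and Hspa1a, Hspa1b, Hspb1, Dnajb1, Dnajb4, Dnaja1 and Hsf2 have the reverse order. The counts of Hspb1 are too few for a fold change.

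Other chaperone genes were compared in the same fit. Over 8 lists of other chaperone genes, 97 of 103 genes were tested, 0 were called, and the median log2 fold change was -0.07, with 68 lower and 29 higher. At an unadjusted p under 0.05, 9 were lower (9.28%) and 1 was higher (1.03%), beside 4.37% and 5.50% of all genes and 7.55% lower among genes averaging 1000 or more. The list medians were -0.07 for 25 J-domain proteins, -0.05 for 11 Hsp70 partners, -0.10 for 21 Hsp90 co-chaperones, -0.11 for 13 prefoldin and chaperonin partners, -0.03 for 7 R2TP genes, -0.06 for 9 other mitochondrial chaperones and proteases and -0.08 for 7 tested HSF1 regulators and other HSF1 targets, and 0.77 for the 4 small heat shock protein genes tested. The lists were written with earlier results of these libraries known.

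Of the 10 genes at an unadjusted p under 0.05, the 6 with the largest differences are named. Cryab, a small heat shock protein of low abundance here, had 33.8 and 20.2 normalized counts in WT against 70.9 and 53.2 in Zbtb16lu/lu, a log2 fold change of 1.20 (standard error 0.43), opposite in sign to the members. The 4 genes tested of the small heat shock protein list (Hspb6, Hspb7, Hspb11 and Cryab) had a positive log2 fold change. That of Hspb6 was 0.03, and the groups overlapped for Hspb6 and Hspb7. Dnajc21, a J-domain protein of ribosome assembly, had 1282 and 1072 in WT against 848 and 850. Pfdn4, a prefoldin subunit, had 1110 and 960 against 695 and 855. Groups did not overlap for Cryab, Dnajc21 and Pfdn4, as was so for 22.1% (lower) and 21.7% (higher) of all genes. The Hsp90-associated Nudcd1 (log2 fold change -0.42) and Ahsa2 (-0.41) and the Hsp70 family member Hspa13 (-0.38) were also lower in the Zbtb16lu/lu pair than in the WT pair, without overlap.

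Per kilobase of exon, the levels of the members spanned more than 3 orders of magnitude in WT GMPs. Hsp90ab1 led with 41821 ± 6820 normalized counts per kilobase (SD, n = 2) in WT against 33043 ± 402 (SD, n = 2) in Zbtb16lu/lu. It was followed in WT by Hspa8 with 13668 ± 4840, Cct5 with 10683 ± 1460 and Hsp90aa1 with 10641 ± 2350, whose values overlapped. Constitutive Hspa8 thus stood far above inducible Hspa1a (415 ± 512) and Hspa1b (471 ± 429), whose counts may lack reads that match both copies. Hsf1 was at 237 ± 30, Hsf2 at 76.3 ± 13.3 and Hspb1 lowest at 14.1 ± 14.5. Exon length here joins all annotated transcripts of a gene, so genes with long rarely used exons are set too low. Together the members took 1.60% and 1.27% of all normalized counts in WT libraries 1 and 2, and 1.08% in each Zbtb16lu/lu library.

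The order of the chaperonin subunits per kilobase depends on this length, since Cct2 (2.56 kb) and Cct5 (2.77 kb) have the shortest joined exons of the 8 and Cct3 (6.37 kb) and Cct7 (6.78 kb) the longest. Cct5 and Cct7 stood at 11714 and 3303 per kilobase in WT library 1, 9652 and 2499 in WT library 2, 9179 and 2345 in Zbtb16lu/lu library 1 and 9776 and 2384 in Zbtb16lu/lu library 2. Without division by length, Cct5 had 32401, 26698, 25389 and 27041 normalized counts and Cct7 had 22386, 16940, 15893 and 16158, while Cct4 was the lowest in each library. Whether the subunits differ in level cannot be told apart from the choice of exon length. Cct2 had 9440 ± 987 in WT against 8118 ± 493 in Zbtb16lu/lu per kilobase (SD, n = 2). In 416b cells, sequenced with another kit and normalized separately, Cct2 had 10157 per kilobase in Empty vector and 10517 in PLZF-Flag, and Cct3 had 2723 and 2789.

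**Figure D4:**
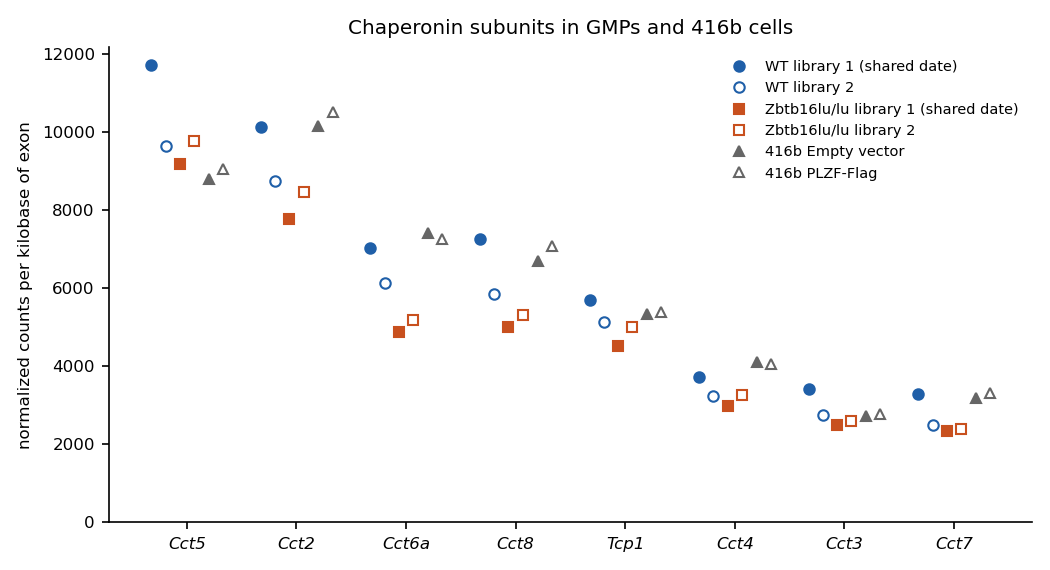
Normalized counts per kilobase of exon (y axis) of the 8 chaperonin subunit genes (x axis, ordered by their WT mean) in the libraries of GMPs and 416b cells, each point a library. The order depends on the joined exon length, shortest for Cct2 and Cct5 and longest for Cct3 and Cct7, and the WT library 1 points are the highest of the GMP points.

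In 416b cells, where PLZF was raised instead of lost, the chaperone genes differed little between conditions. Zbtb16 was covered by 632 reads in the Empty vector library and by 1538 in the PLZF-Flag library, which is a log2 ratio of 2.73 after normalization. Reads on the listed genes summed to 54530162 in Empty vector and 19995393 in PLZF-Flag. Of the 33 members 30 were listed, all averaging 10 normalized counts or more, and Hspa1a, Hspb1 and Hspa1b were not listed. The table gives genes with reads in both libraries. Intervals at 95% are exact binomial ones by the Clopper-Pearson method and cover counting error alone, and 1 library per condition allows no test and no replicate check.

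In 0 of the 30 genes did either condition exceed the other by 25% or more. Among the 11836 genes with such a mean, 4.59% were higher by that much in PLZF-Flag and 7.30% in Empty vector. Among genes averaging 1000 or more, as 29 of the 30 do, 0.251% and 0.83% were. The median log2 ratio of the members was 0.05, against -0.0001 for all genes, with 20 higher and 10 lower in PLZF-Flag. The interval lay above 0 for 16 members, against a background of 16.1%, and below 0 for 5, against 16.0%. Among the more abundant genes, averaging 1000 or more, these shares were 22.2% and 19.4%, and such intervals narrow with depth.

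In what follows the reads of the Empty vector library come first and those of the PLZF-Flag library second. Hsp90ab1 had the most reads, 189097 and 73601, and its log2 ratio was 0.09 (95% interval 0.08 to 0.10). Hspa8 had 141692 and 55199 reads and the same ratio of 0.09 (0.07 to 0.10). Both constitutive genes had narrow intervals above 0. The largest positive ratios were those of Hspa4l, with 2171 and 901 reads (0.18, interval 0.07 to 0.29), of Dnajb1, with 5605 and 2309 (0.17, 0.10 to 0.24), and of Stip1, with 23132 and 9281 (0.13, 0.10 to 0.17). The largest negative ratios were those of Dnajb4, with 3599 and 1073 reads (-0.30, -0.40 to -0.20), of Bag3, with 1818 and 591 (-0.17, -0.31 to -0.04), and of Ptges3, with 6050 and 1999 (-0.15, -0.22 to -0.08). Heat-inducible genes were thus found at both ends.

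Of the genes with the largest genotype differences in GMPs, Hsph1 had 7785 and 2789 reads in 416b cells (-0.03, interval -0.09 to 0.03), and Hsp90aa1 had 29255 and 11239 (0.07, 0.04 to 0.10). Chordc1 had 5415 and 2096 (0.08, 0.0064 to 0.15) and Dnaja1 3583 and 1378 (0.07, -0.02 to 0.16). For Hsph1 and Dnaja1 a difference was not detectable at this depth. The chaperonin genes had ratios from -0.03 (Cct6a) to 0.08 (Cct8), with 6 of 8 above 0, and the mitochondrial chaperone genes from -0.03 (Hspe1) to 0.08 (Hspa9). The remaining co-chaperones ranged from -0.04 (Cacybp) to 0.08 (Fkbp4), and Hspa4 stood at -0.04. Hsf1 had 2944 and 1165 reads (0.11, 0.01 to 0.21) and Hsf2 1067 and 363 (-0.11, -0.28 to 0.07), the latter with an interval that holds 0. Of 92 other chaperone genes averaging 10 or more, 57 were higher and 35 lower in PLZF-Flag, with a median of 0.04. The 2 that were at least 25% higher, Hspa2 (136 and 79 reads, 0.66, interval 0.25 to 1.08) and Dnajb5 (31 and 20 reads, 0.78, -0.07 to 1.67), were named after their values were seen, and 0 were lower by that much. The members took 1.68% of all normalized counts in Empty vector and 1.74% of those in PLZF-Flag.

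**Figure D5:**
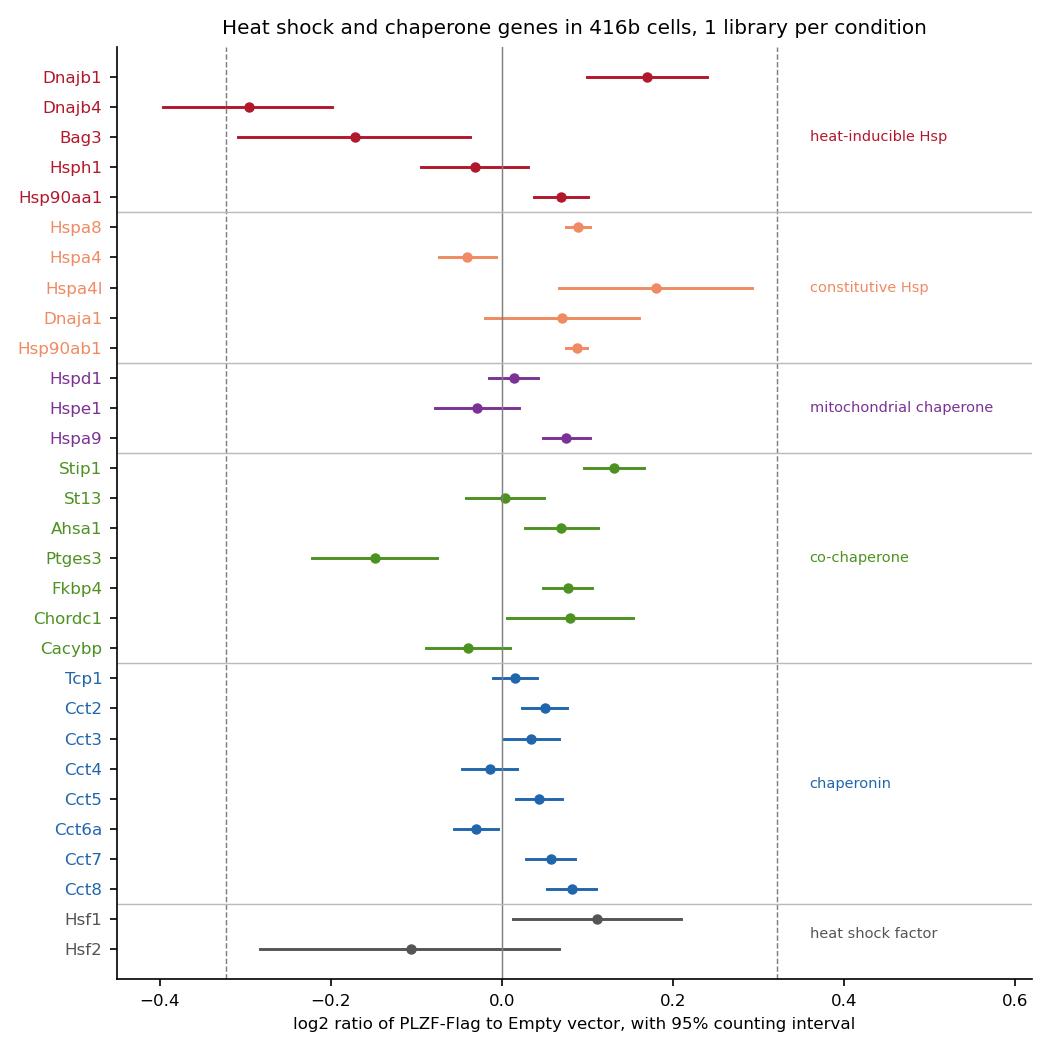
Log2 ratio between PLZF-Flag and Empty vector (x axis) for the 30 genes listed in 416b cells (y axis, by class), with the 95% counting interval as a bar and dashed lines where either condition is 25% above the other. All points lie between the dashed lines, from -0.30 (Dnajb4) to 0.18 (Hspa4l), and 16 bars lie wholly above and 5 wholly below 0.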

How the data were processed

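RNA-seq values of 4 libraries of GMPs and 2 of 416b cells were used. The signal values in the deposited tables are normalized counts: the authors aligned reads with subread-align (mm10), assigned them to genes with featureCounts and scaled each library by its DESeq2 size factor. The GMP table also holds the authors' means, fold changes and p-values, which were not used. The members and all gene lists were chosen with earlier results of these data known. All 33 members are accounted for. Values in every library are given for the heat-inducible genes, the heat shock factors, the extremes of each other class by log2 fold change and members at an unadjusted p under 0.05, and of other chaperone genes at that p the 6 with the largest differences are named. Stip1 and Ahsa1 were named after their values were seen.

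For GMPs, limma 3.58.1 with an intensity trend was run in R 4.3.3 on log2 values with a pseudocount of 1, keeping the 20531 genes that reached 10 normalized counts in 2 or more libraries. Benjamini-Hochberg adjustment ran over all of them, with the study's threshold of 0.08. The study itself reports both up- and downregulated genes in Zbtb16lu/lu GMPs, from 3 RNA extractions and its own test. Of the GMP values above 0, 100% were whole multiples of the smallest to within 0.001 of a step (0.964 to 1.03 by library). Reads could thus be recovered, but limma on the normalized counts was kept and no count test was run. The study gives 3 independent RNA extractions, of which the table holds 2 libraries per genotype, and does not say whether these came from separate mice, so p-values measure the spread between these libraries. On data simulated with the same dispersion for all genes and both genotypes, 200 genes changed 2-fold gave 150 calls, 144 of them changed genes. No change gave 0 calls. The real WT libraries differed more than the Zbtb16lu/lu pair, so these counts do not give the share of 2-fold changes found here.

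For 416b cells, a value divided by that of 1 read (0.60518 in Empty vector, 1.6524 in PLZF-Flag) gave whole reads within 0.1 for 84.3% and 85.5% of genes, and the rest, fractions of a read, were rounded. edgeR 4.0.16 was used for an alternative scaling only. Exon lengths came from GENCODE M21 and promoter windows from RefSeq. ChIP-seq and ATAC-seq were not analysed here.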

Additional observations from a re-analysis of the deposited data

How the results depend on the processing

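Alternatives for GMPs were pseudocounts (0.1, 10), all genes unfiltered, only genes averaging 100 or more, quantile normalization and equal library totals. Others were totals leaving out histone genes and the top 10 genes, GC and length offsets, no intensity trend and a robust variance prior. A threshold of 0.05, each library left out, the pair of the shared date and the pair of the other, differing dates were also used. Summing Hspa1a and Hspa1b was chosen after seeing the data. With all 4 libraries, the median of the members stayed between -0.37 and -0.34 and 0 genes were called. Without the intensity trend 6 members, not 16, were lower at an unadjusted p under 0.05, against 2.65% of all genes in that fit. With 1 library left out, 1 to 26 members were under the adjusted threshold (15 without WT library 1 and 26 without WT library 2, where 22.7% and 13.4% of all genes were too), 10 to 28 were lower at an unadjusted p under 0.05, and the median was -0.49 to -0.25. It was -0.51 in the pair of the shared date and -0.21 in the other pair. Signs turned for Hsf2 with GC and length offsets (0.079), and, with a library left out, for Ahsa1 (-0.54 to 0.067), Fkbp4 (-0.49 to 0.12), Hsf1 (-0.15 to 0.11, and 0.081 without Zbtb16lu/lu library 2) and Hsf2 (-0.30 to 0.061). Between single libraries, of the shared date or of the other dates, they turned for Dnajb4 (0.020), Hsf2 (0.023), Ahsa1 (0.082), Fkbp4 (0.086), Cct4 (0.012), Cct5 (0.018) and Hsf1 (0.0048). The cause was not tested. In 416b cells, TMM scaling, total counts, both pseudocounts and both filters left 20 members higher, 10 lower and 0 beyond 25%. No paired analysis was possible because the labels give no replicate numbers and only 1 date is common to both genotypes. Hspb1 in GMPs fell under the filter on low counts, and in 416b cells no difference was detectable at this depth for Hsph1, Dnaja1, Hspd1, Hspe1, St13, Cacybp, Tcp1, Cct4 and Hsf2.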
